A study of Homo sapiens with 12 samples.

Results

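K562 cells that had received a plasmid for EGFP-tagged CXXC5 (pEGFP-CXXC5) were compared with K562 cells that carried a scrambled shRNA. The arrays were chosen by their titles, 3 titled pEGFP-CXXC5 and 3 titled scrambled shRNA control, which are 6 of the 12 arrays of the series. Values are described for the 19064 of 22277 probe sets that were paired with 1 gene symbol, which cover 11963 genes. K562 is an established human line from a chronic myeloid leukaemia in blast crisis, and the labels call it an AML cell line.

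In the pEGFP-CXXC5 arrays human CXXC5 had been inserted into pEGFP-C2 and brought into the cells by nucleofection, a transient transfection by electric pulse. In the scrambled arrays a pLKO lentivirus had been used, which integrates and is passed on stably. Of the other 6 arrays, 3 came from lentiviral pLKO CXXC5 shRNA, with a pair of clones named for every sample, and 3 from nucleofection of the empty pEGFP-C2 vector. All 4 groups had recombinant Wnt3a at 100 ng/ml in serum-free medium, their RNA was harvested 8 h later, and 500 ng was labelled for an Affymetrix 3′ expression array. CXXC5 and the way of delivery thus differed together between the groups compared, and within these 6 arrays they cannot be told apart. For that reason, levels with empty vector and with CXXC5 shRNA are given beside the main values of some genes. For some lists, medians against empty vector are given. CXXC5 itself had no probe set paired with it here, and its level was not analysed, which leaves the labels unchecked against the transgene.

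CXXC5 encodes a nuclear protein with a CXXC zinc finger, a fold that recognises unmethylated CpG in DNA. It is also known as a negative regulator of canonical Wnt signalling, in which Wnt3a binds Frizzled and LRP receptors, Dishevelled is recruited and beta-catenin is spared from degradation to act with TCF factors. Many of the genes described first are known targets of NF-kappaB, a family of dimers held in the cytoplasm by inhibitors such as NFKBIA. On stimulation NF-kappaB enters the nucleus and activates chemokine, cytokine and adhesion genes through kappaB sites, together with its own inhibitors.

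Array medians over all probe sets lay between 6.65 and 6.71 on the log2 scale. In scrambled replicate 3 the 3′ minus 5′ difference of the GAPDH control probe sets, a sign of RNA and labelling quality, was 0.87 log2, against 0.23 to 0.34 in the other 11 arrays, and that of ACTB was 2.57, against 1.95 to 2.27. Counts that changed by more than 1.5 times without a single array, this one included, are given with that array named or as a range over the 6 arrays. Of 14 erythroid genes fixed as K562 markers, 8 were measured, at levels between 8.00 and 13.38, which are percentiles 58.5 to 99.3 of all genes. The median level was 10.09 for these erythroid markers, 5.96 for lymphoid markers (7 of 8 measured) and 4.99 for fibroblast, endothelial and epithelial markers (8 of 8). Lymphoid markers ran from 4.64 to 10.94 (percentiles 16.7 to 91.4). The fibroblast, endothelial and epithelial ones ran from 3.88 to 11.25 (percentiles 8.87 to 93.4), so the brightest of both sets lay within the erythroid range. Over the lymphoid markers the array medians were 6.05 to 6.37 with pEGFP-CXXC5 and 5.66 to 6.02 with scrambled shRNA, and over the fibroblast, endothelial and epithelial markers 4.73 to 5.19 and 4.97 to 5.06. On an array none of these can be read as 0, and the part of other cells in the results was not tested.

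A probe set is called higher or lower where limma's Benjamini-Hochberg adjusted p was under 0.05. Of the 19064 probe sets 2988 were called (15.7%), of which 1499 were higher (7.86%) and 1489 lower (7.81%) with pEGFP-CXXC5. With the brightest probe set standing for each gene, 1912 of 11963 genes were called (16%), 860 higher (7.19%) and 1052 lower (8.79%). At an unadjusted p under 0.05, 1794 genes were higher (15%) and 2083 lower (17.4%). Called counts given for gene lists stand beside 7.19% higher and 8.79% lower, and unadjusted counts beside 15% and 17.4%. Most of these differences were small: the median size among called genes was 0.368 log2, and the median difference over all genes was -0.011. Only 44 genes (0.368%) were both called and at least 2-fold apart, 22 in each direction. The 3 pEGFP-CXXC5 and 3 scrambled values did not overlap in 4429 genes (37%). Nothing in the labels says that replicates were grown separately, and the p-values therefore reflect the scatter among these samples alone, which may be technical.

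The count of called genes depended on single arrays. It was 1127 without pEGFP-CXXC5 replicate 1, 951 without replicate 2 of that group, 1229 without scrambled replicate 2 and 1244 without scrambled replicate 3. Of the 1244 genes called without scrambled replicate 3, 1112 were among the 1912 called with all arrays, and all 1912 kept their direction. Both fits share the other arrays, so a kept direction was likely beforehand. Among 734 called genes with more than 1 probe set, 223 had a further probe set called the same way and 38 had one called the opposite way.

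**Figure D1:**
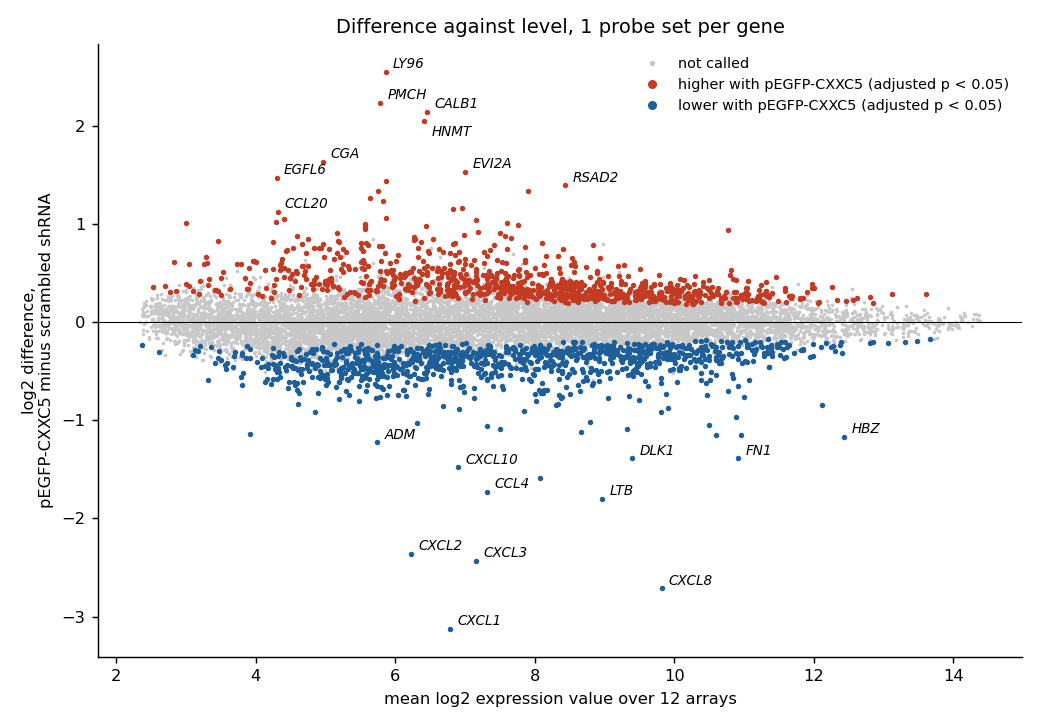
Difference between pEGFP-CXXC5 and scrambled arrays (log2, vertical axis) against the mean level over 12 arrays (log2, horizontal axis), with 1 point per gene; red points were called higher with pEGFP-CXXC5, blue points lower, grey points not called. CXCL1 lies lowest at -3.13 and LY96 highest at 2.55, while most called genes lie within 1 log2 of the zero line.

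The 4 genes furthest below the scrambled arrays were CXCL1, CXCL8, CXCL3 and CXCL2, which encode chemokines that draw neutrophils through the receptors CXCR1 and CXCR2 and lie together on chromosome 4. Promoter sequences of 6 chemokine genes are printed here because kappaB sites near the start are what textbook accounts of these genes rest on, and because CXCL8 and CCL20 differ from the others in sequence or in direction. They run from 250 bases before to 50 bases after the transcription start, 5′ to 3′ on the gene's strand, and come from RefSeq on GRCh38.p14; capitals mark matches to the kappaB consensus on either strand, with overlapping matches merged.
CXCL1 chr4:73869143-73869442 (plus strand): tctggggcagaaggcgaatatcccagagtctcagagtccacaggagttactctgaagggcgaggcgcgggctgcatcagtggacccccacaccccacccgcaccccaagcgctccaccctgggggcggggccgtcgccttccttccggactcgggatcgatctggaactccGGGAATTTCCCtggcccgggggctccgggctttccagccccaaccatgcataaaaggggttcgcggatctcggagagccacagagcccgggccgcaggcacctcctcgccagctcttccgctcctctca
CXCL2 chr4:74099146-74099445 (minus strand): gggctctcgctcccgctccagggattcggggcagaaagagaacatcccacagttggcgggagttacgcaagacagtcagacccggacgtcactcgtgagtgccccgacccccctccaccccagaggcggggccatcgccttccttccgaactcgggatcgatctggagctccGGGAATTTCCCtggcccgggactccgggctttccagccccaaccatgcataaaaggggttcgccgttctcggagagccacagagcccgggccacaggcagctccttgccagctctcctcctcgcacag
CXCL3 chr4:74038640-74038939 (minus strand): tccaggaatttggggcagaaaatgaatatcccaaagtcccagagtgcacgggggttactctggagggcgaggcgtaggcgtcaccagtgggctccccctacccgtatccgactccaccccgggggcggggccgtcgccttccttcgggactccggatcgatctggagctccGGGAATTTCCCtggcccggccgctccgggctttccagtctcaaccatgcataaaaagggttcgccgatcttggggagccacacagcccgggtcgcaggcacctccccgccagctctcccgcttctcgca
CXCL10 chr4:76023448-76023747 (minus strand): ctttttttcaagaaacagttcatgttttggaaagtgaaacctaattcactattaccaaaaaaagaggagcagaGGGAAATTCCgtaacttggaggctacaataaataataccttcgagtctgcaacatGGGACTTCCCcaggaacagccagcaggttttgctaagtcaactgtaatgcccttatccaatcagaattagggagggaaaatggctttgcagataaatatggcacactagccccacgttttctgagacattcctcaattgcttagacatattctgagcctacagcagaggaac
CCL20 chr2:227813592-227813891 (plus strand): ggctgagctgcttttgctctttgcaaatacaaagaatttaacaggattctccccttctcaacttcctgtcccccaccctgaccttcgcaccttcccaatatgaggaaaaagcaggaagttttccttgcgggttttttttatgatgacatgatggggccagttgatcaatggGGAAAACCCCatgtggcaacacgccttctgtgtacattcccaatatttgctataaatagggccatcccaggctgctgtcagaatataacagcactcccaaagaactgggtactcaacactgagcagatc
CXCL8 chr4:73740319-73740618 (plus strand): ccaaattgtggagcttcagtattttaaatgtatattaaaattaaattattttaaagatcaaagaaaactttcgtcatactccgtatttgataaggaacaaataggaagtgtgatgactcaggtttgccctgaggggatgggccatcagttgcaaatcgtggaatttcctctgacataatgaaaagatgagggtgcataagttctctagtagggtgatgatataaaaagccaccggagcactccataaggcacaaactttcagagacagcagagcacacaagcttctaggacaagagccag

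CXCL1, CXCL2 and CXCL3 shared the same run, GGGAATTTCCC, which began 79, 78 and 79 bases before the start. CXCL10 held 2 matches, GGGAAATTCC at 177 and GGGACTTCCC at 122 bases before the start, and CCL20 held GGAAAACCCC at 79 bases before it. The CXCL8 window held no full match to the consensus. It did hold tggaatttcc, which differs only in its first letter from the GGGAATTTCC within the run of CXCL1, CXCL2 and CXCL3. The count of matches therefore does not show that CXCL8 lacks a kappaB site. Full matches were not rare. They occurred in 12.9% of promoters of the 9563 tested genes with a sequence and in 10.8% of all 27305 RefSeq promoters. They were present in 17.2% of 832 promoters of lower genes, in 11% of 716 promoters of higher genes, in 8 of 15 promoters of genes lower by at least 2-fold and in 2 of 16 of those higher by at least 2-fold. Among chemokine genes 10 of 24 promoters held a match, and so did 4 of the 6 whose genes were lower. These shares describe the sequences and were given no test. CXCL1, CXCL2 and CXCL3, close paralogs with the same run, count separately in them.

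CXCL1 had log2 values of 6.13, 6.21 and 6.33 with pEGFP-CXXC5, against 9.29, 9.54 and 9.22 with scrambled shRNA. The groups did not overlap, which the choice of the largest differences required. The difference was -3.13 (SE 0.139), which is 8.73-fold lower with pEGFP-CXXC5 (adjusted p = 9.86e-08). CXCL1 averaged 5.70 with CXXC5 shRNA and 5.86 with empty vector, so that the scrambled arrays stood far above the other 3 groups. In RNA from whole cultures more producing cells and more RNA per cell cannot be told apart, and the share of cells that took up the plasmid is not given in the sources used here.

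CXCL8, which encodes interleukin 8, had values of 9.18, 9.03 and 9.01 with pEGFP-CXXC5, against 11.65, 11.84 and 11.87 with scrambled shRNA. It was 6.55-fold lower (difference -2.71, SE 0.11, adjusted p = 6.56e-08), and its other probe set differed by -1.80 in the same direction. CXCL3 had 6.53, 6.36 and 6.59 with pEGFP-CXXC5, against 8.83, 8.95 and 8.97 with scrambled shRNA, a 5.39-fold difference. CXCL2 had 5.84, 5.64 and 5.48 with pEGFP-CXXC5, against 7.91, 8.09 and 8.03 with scrambled shRNA, a 5.13-fold difference. In all 4 genes each scrambled array lay above each of the other 9 arrays. CXCL1, CXCL2 and CXCL3 are close paralogs with 1 probe set each here, so the array may not keep them fully apart.

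CXCL10, a ligand of CXCR3 that draws activated T cells, had 7.11, 7.01 and 7.14 with pEGFP-CXXC5, against 8.66, 8.59 and 8.44 with scrambled shRNA (difference -1.48, SE 0.0741, adjusted p = 2.54e-07). Its means with CXXC5 shRNA and empty vector were 5.67 and 6.30, below both groups compared. CCL4, a chemokine of the CC class, had 7.29, 6.64 and 7.01 with pEGFP-CXXC5, against 8.51, 8.69 and 8.92 with scrambled shRNA, and was 3.31-fold lower. Its spread among the pEGFP-CXXC5 arrays was wide.

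A few chemokines went the other way. CCL5, another CC chemokine, had 6.70, 6.19 and 6.52 with pEGFP-CXXC5, against 5.24, 5.21 and 5.18 with scrambled shRNA, and was 2.4-fold higher (adjusted p = 9.55e-05), with its second probe set at 1.29. CCL20, which draws cells bearing CCR6, had 5.26, 5.28 and 5.02 with pEGFP-CXXC5, against 4.10, 4.0 and 4.10 with scrambled shRNA, and was 2.17-fold higher (adjusted p = 3.8e-05). CCL20 averaged 4.04 with CXXC5 shRNA and 3.96 with empty vector, so the pEGFP-CXXC5 arrays alone were raised, although its level lay only at percentile 13.1 of all genes.

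Of 33 measured chemokine genes, 8 were lower and 4 higher, against 8.79% and 7.19% of all genes, and the median difference of the list was -0.099. The remaining lower members were CXCL14 at -0.42 and CCL17 at -0.31, and the remaining higher ones were CCL2 at 0.48 and CXCL5 at 0.33. CXCL14 and CXCL5 lay at percentiles 5.38 and 5.4 of level, and the other CXCL5 probe sets differed by -0.10 and -0.08. Without scrambled replicate 3 the counts were 8 lower and 3 higher.

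**Figure D2:**
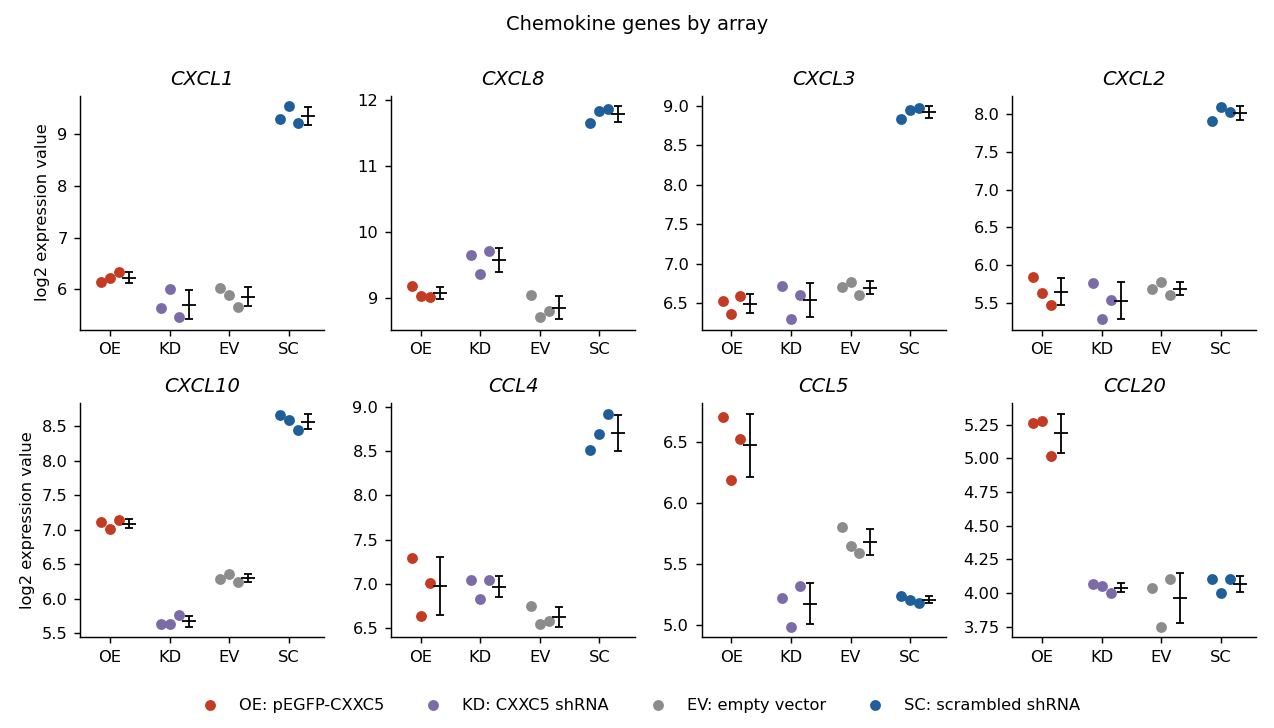
Log2 expression values of 8 chemokine genes by array, in pEGFP-CXXC5 (OE), CXXC5 shRNA (KD), empty vector (EV) and scrambled shRNA (SC) cells; each dot is 1 array and the black mark is the mean with SD (n = 3), on a vertical axis that does not start at 0. In the CXCL1, CXCL8, CXCL3, CXCL2, CXCL10 and CCL4 panels the scrambled arrays are highest, and in the CCL5 and CCL20 panels the pEGFP-CXXC5 arrays are highest.

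Of 30 measured factors and targets other than chemokines, 19 were lower and 0 higher in the limma fit, against 8.79% and 7.19% of all genes; at an unadjusted p under 0.05 the counts were 21 and 0. The list's median difference was -0.478, against -0.011 over all genes, and 3 members that were not called had a positive difference. Without scrambled replicate 3 the count was 17 lower and 0 higher, with a median of -0.471. The list median was 0.072 for pEGFP-CXXC5 minus empty vector and 0.628 for scrambled minus empty vector, comparisons that share arrays with the main one and with each other.

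LTB, which encodes lymphotoxin beta, a membrane cytokine of the TNF family, had 9.27, 9.15 and 9.17 with pEGFP-CXXC5, against 10.92, 11.13 and 10.93 with scrambled shRNA, and was 3.48-fold lower (SE 0.0721, adjusted p = 6.56e-08). Its mean was 7.83 both with CXXC5 shRNA and with empty vector, so both groups compared lay above the other arrays, the scrambled ones most. ICAM1, an adhesion molecule for leukocyte integrins, had 8.77, 8.54 and 8.57 with pEGFP-CXXC5, against 9.71, 9.88 and 9.65 with scrambled shRNA, and was 2.17-fold lower, with its other probe sets at -0.95 and -0.74. CD83, a marker of mature dendritic cells, had 7.19, 7.25 and 7.12 with pEGFP-CXXC5, against 8.25, 8.29 and 8.20 with scrambled shRNA, a 2.09-fold difference. The groups overlapped in none of these genes, nor in 37% of all genes. LTB was among the largest differences chosen without overlap, so for it this was given by the choice.

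EBI3, a subunit shared by interleukins 27 and 35, was lower by 1.03 log2 in a wider spread, with 6.26, 5.68 and 5.98 in pEGFP-CXXC5 cells, against 6.84, 7.18 and 6.97 in scrambled cells. TNFAIP3, the ubiquitin-editing enzyme A20 that restrains NF-kappaB, had 7.23, 7.15 and 7.11 with pEGFP-CXXC5, against 8.38, 8.33 and 8.04 with scrambled shRNA, and was 2.12-fold lower (adjusted p = 0.000179). TNFAIP3 averaged 7.28 with CXXC5 shRNA and 7.31 with empty vector, close to the pEGFP-CXXC5 arrays. The 25 promoters of this list that had a sequence held a kappaB match in 11 cases, and the 15 of its lower genes in 8.

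Immediate early genes encode transcription factors induced within minutes of a stimulus without new protein synthesis. Of 27 measured, 15 were lower and 0 higher in the limma fit (17 and 2 at an unadjusted p under 0.05), with a median difference of -0.286. Leaving out single arrays left 9 to 13 of them lower, the fewest without pEGFP-CXXC5 replicate 2. The list median was 0.083 for pEGFP-CXXC5 minus empty vector and 0.370 for scrambled minus empty vector. EGR3, a zinc finger factor downstream of ERK, had 7.49, 7.05 and 7.30 with pEGFP-CXXC5, against 8.17, 8.31 and 8.02 with scrambled shRNA (difference -0.89, adjusted p = 0.000544). Its means with CXXC5 shRNA and empty vector were 6.13 and 6.10, so that pEGFP-CXXC5 cells lay between these and scrambled cells. KLF6, a Krüppel-like factor, was lower by 0.70 log2 and ATF3, a stress-induced repressor, by 0.70; the other KLF6 probe sets stood at -0.50 and 0.15 and were not called.

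HES1, a repressor downstream of Notch, differed from this pattern in its controls. It had 8.02, 7.81 and 7.71 with pEGFP-CXXC5, against 8.48, 8.33 and 8.72 with scrambled shRNA, while its means were 8.95 with CXXC5 shRNA and 8.50 with empty vector. The pEGFP-CXXC5 arrays were thus the lowest of the 4 groups for the brightest HES1 probe set, whereas its other probe sets differed by -0.26 and 0.11.

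Genes listed as ERK feedback and mRNA decay regulators gave 9 lower and 0 higher of 23 measured, with a median of -0.180. At an unadjusted p under 0.05 the counts were 12 and 1. ZFP36, the RNA-binding protein tristetraprolin that destabilises cytokine mRNAs, had 7.98, 7.77 and 7.85 with pEGFP-CXXC5, against 8.64, 8.82 and 8.85 with scrambled shRNA, and was 1.87-fold lower (adjusted p = 4.97e-05). Its relative ZFP36L1 was lower by 0.52 log2. PHLDA1, induced by growth factors, was lower by 0.49, and DUSP1, a phosphatase that switches off MAP kinases, by 0.45. The list median was 0.105 for pEGFP-CXXC5 minus empty vector and 0.273 for scrambled minus empty vector.

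Metabolic and stress programmes made up further lists with many lower members. Hypoxia and glycolysis genes, many of them targets of HIF1A, gave 16 lower and 0 higher of 34 measured (23 and 1 at an unadjusted p under 0.05), with a median of -0.201. ADM, the vasodilator peptide adrenomedullin, had 5.51, 5.25 and 5.53 with pEGFP-CXXC5, against 6.42, 6.98 and 6.55 with scrambled shRNA, and was 2.34-fold lower (SE 0.133, adjusted p = 0.000257). VEGFA, the angiogenic growth factor that also counts in the amino acid response list, had 10.19, 9.96 and 10.07 with pEGFP-CXXC5, against 11.01, 11.13 and 11.23 with scrambled shRNA, and was 2.07-fold lower, with its other probe sets between -1.03 and -0.56. ALDOC, a glycolytic aldolase, was lower by 1.02 log2 and P4HA1, a collagen prolyl hydroxylase, by 0.65. Leaving out single arrays left 9 to 15 of this list lower, with 9 without pEGFP-CXXC5 replicate 3, and 10 without replicate 2 of that group or scrambled replicate 2. The list median was 0.029 for pEGFP-CXXC5 minus empty vector and 0.200 for scrambled minus empty vector.

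ATF4 is the transcription factor that is translated when amino acids run short or the endoplasmic reticulum is stressed. Of 30 measured genes of its response, 13 were lower and 1 higher, with a median of -0.230, and leaving out single arrays left 9 to 11 lower. The higher count was 1 without scrambled replicate 3 and 0 without any of the other 5 arrays. The list median was 0.039 for pEGFP-CXXC5 minus empty vector and 0.230 for scrambled minus empty vector. GDF15, a stress-induced cytokine of the TGF-beta family, had 11.04, 10.81 and 10.97 with pEGFP-CXXC5, against 12.18, 12.40 and 11.70 with scrambled shRNA, and was 2.22-fold lower (adjusted p = 0.000964). GDF15 averaged 10.81 with CXXC5 shRNA and lay between 9.86 and 10.24 with empty vector; its other, dim probe set differed by 0.04. DDIT3, the factor CHOP, had 9.47, 9.37 and 9.58 with pEGFP-CXXC5, against 10.21, 10.36 and 10.59 with scrambled shRNA, and was 1.88-fold lower. DDIT4, an inhibitor of mTORC1, was lower by 0.85 log2. Of 16 aminoacyl-tRNA synthetases, which charge tRNAs and include ATF4 targets, 3 were lower and 0 higher (6 and 2 at an unadjusted p under 0.05), with WARS1 at -0.30, CARS1 at -0.26 and SARS1 at -0.25; without scrambled replicate 2 or 3 the count was 1, and without pEGFP-CXXC5 replicate 2 or 3 it was 0, while 1 was higher without scrambled replicate 1.

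The unfolded protein response raises chaperones of the endoplasmic reticulum. Of 26 measured members of its list, 6 were higher and 1 lower, with a median of 0.079, and 8 members had a negative difference. The lower count was 0 without any single array other than scrambled replicate 3. The lower member was EDEM1 at -0.21, named after its values were seen. The list median was -0.062 for pEGFP-CXXC5 minus empty vector and -0.182 for scrambled minus empty vector. SDF2L1, a cofactor of the chaperone BiP, had 11.41, 11.43 and 11.46 with pEGFP-CXXC5, against values between 10.87 and 11.04 with scrambled shRNA, a difference of 0.46 (adjusted p = 0.00117). HSP90B1, the chaperone GRP94, had 10.25, 10.26 and 10.16 with pEGFP-CXXC5, against 10.01, 9.84 and 9.50 with scrambled shRNA. Its lowest value came from scrambled replicate 3, and without that array the difference was 0.30 (adjusted p = 0.0756) and 3 members were higher in the list. The same number, 3, was higher without pEGFP-CXXC5 replicate 1 or replicate 2.

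Sterol and fatty acid synthesis genes, which SREBP factors switch on when cell sterol is low, gave 12 lower and 2 higher of 24 measured, with a median of -0.231. HMGCS1, the synthase that starts the mevalonate pathway, had 10.48, 10.41 and 10.36 with pEGFP-CXXC5, against 11.32, 11.38 and 11.45 with scrambled shRNA, and was 1.96-fold lower (SE 0.0748, adjusted p = 1.5e-05). MSMO1, a sterol methyl oxidase, was lower by 0.75 log2. INSIG1, which holds SREBP in the endoplasmic reticulum, was lower by 0.71, and FASN, the fatty acid synthase, by 0.62, although the other INSIG1 and FASN probe sets, between -0.33 and -0.13, were not called. Without scrambled replicate 3 the count was 12 lower and 1 higher, and without pEGFP-CXXC5 replicate 1 0 were higher. The list median was 0.028 for pEGFP-CXXC5 minus empty vector and 0.339 for scrambled minus empty vector.

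K562 cells make embryonic and fetal globins, and erythroid genes were among the brightest that differed. HBZ, which encodes the embryonic zeta globin chain, had 11.84, 11.86 and 11.92 with pEGFP-CXXC5, against 12.98, 13.02 and 13.14 with scrambled shRNA, and was 2.25-fold lower (SE 0.0623, adjusted p = 4.5e-07). HBZ averaged 12.60 with CXXC5 shRNA and 12.22 with empty vector, so the pEGFP-CXXC5 arrays were lowest and the scrambled arrays highest. HBE1, the epsilon globin gene, was lower by 0.45 log2 in its brighter probe set (0.06 in the other) and CPOX, a heme synthesis enzyme, by 0.53. EPOR, the erythropoietin receptor, was lower by 0.73 in its brightest probe set, while its other 4 probe sets lay between -0.20 and 0.14.

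Of 28 measured erythroid genes, 9 were lower and 2 higher, against 8.79% and 7.19% of all genes, with a median of -0.115. Without scrambled replicate 3 the count was 7 lower and 1 higher, and 1 was also higher without any single pEGFP-CXXC5 array. The higher ones were ALAD, another heme synthesis enzyme, at 0.40 and GATA1, the master factor of the erythroid lineage, at 0.30; neither name falls among the 4 largest of the list, and both were picked after their values were seen. GATA1 had 10.42, 10.23 and 10.35 with pEGFP-CXXC5, against 10.15, 10.11 and 9.82 with scrambled shRNA, and without scrambled replicate 3 its difference was 0.20 (adjusted p = 0.131). KLF1, a further erythroid factor named after its values were seen, differed by -0.23 (adjusted p = 0.0839). HBB at -0.31 and HBD at -0.06, the other measured globin genes of the list, were not called. HBZ and GATA1 differed in opposite directions, but GATA1 lost its call without scrambled replicate 3.

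Several matrix, imprinted and cytoskeletal genes were well below the scrambled arrays. FN1, which encodes fibronectin, had 10.31, 10.21 and 10.28 with pEGFP-CXXC5, against 11.67, 11.68 and 11.62 with scrambled shRNA, and was 2.62-fold lower (SE 0.0571, adjusted p = 6.56e-08). Of its other 5 probe sets, the 3 bright ones lay between -1.50 and -1.44 and the 2 dim ones at -0.22 and -0.16. DLK1, an imprinted transmembrane protein related to Notch ligands, had 8.98, 8.86 and 8.77 with pEGFP-CXXC5, against 10.14, 10.33 and 10.30 with scrambled shRNA, and was 2.62-fold lower. Its mean with empty vector was 8.84, at the level of the pEGFP-CXXC5 arrays, and with CXXC5 shRNA it was 9.64.

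CDKN1C, an imprinted inhibitor of cyclin-dependent kinases, had 8.86, 8.69 and 8.89 with pEGFP-CXXC5, against 9.72, 9.93 and 10.04 with scrambled shRNA, a 2.12-fold difference, and its other 4 probe sets lay between -0.72 and -0.45. TUBB2B, a beta tubulin of neurons, was 3.01-fold lower, with 7.54, 7.02 and 7.33 in pEGFP-CXXC5 cells, against 8.76, 8.93 and 8.97 in scrambled cells. MMP1, a collagenase named after its values were seen, was lower by 1.15 log2, at percentile 9.15 of level. MAP1B, a microtubule-associated protein, had 8.80, 8.78 and 8.79 with pEGFP-CXXC5, against 9.68, 9.48 and 9.60 with scrambled shRNA, and averaged 10.03 with CXXC5 shRNA and 9.55 with empty vector. For this MAP1B probe set the pEGFP-CXXC5 arrays alone were low, while the other, dimmer MAP1B probe set differed by -0.18 and was not called. The same order as in the brighter probe set held for TMEM176A at -0.63 and MAP3K8, a kinase upstream of ERK, at -0.57.

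**Figure D3:**
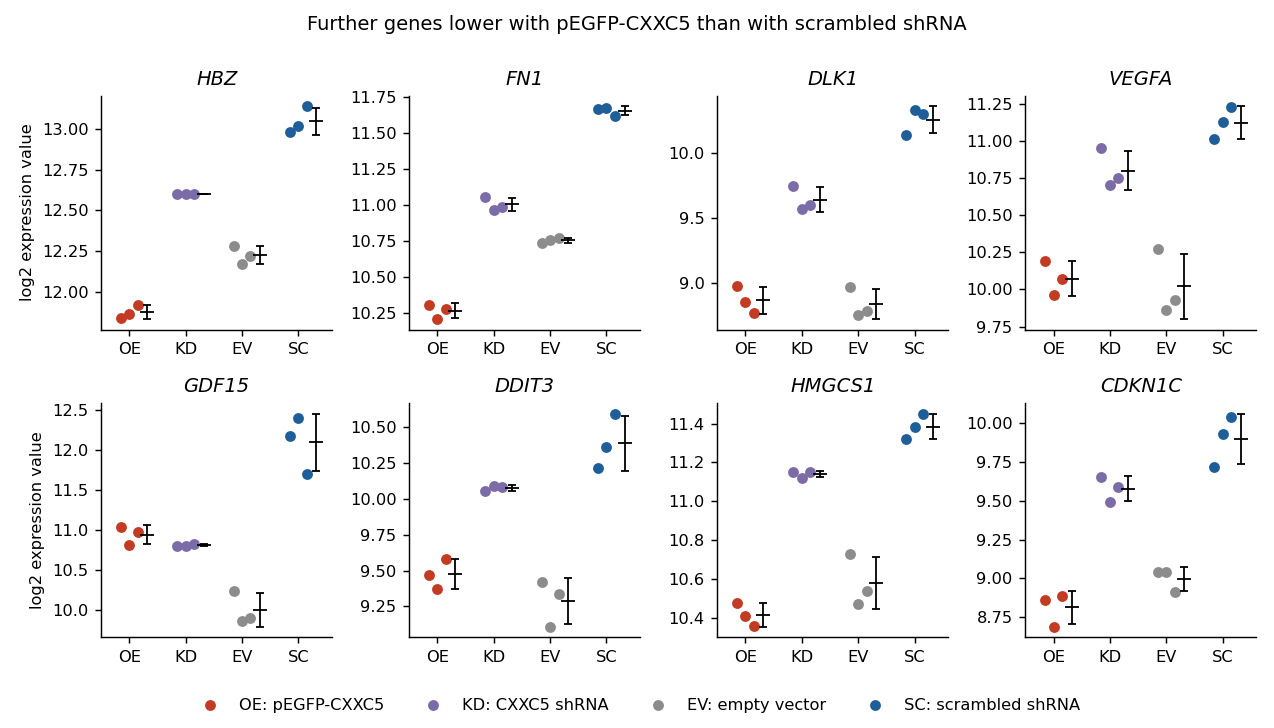
Log2 expression values by array of 8 genes lower with pEGFP-CXXC5 (OE) than with scrambled shRNA (SC), with CXXC5 shRNA (KD) and empty vector (EV) between them on the horizontal axis; dots are arrays and black marks the mean with SD (n = 3), and the vertical axes do not start at 0. In every panel the scrambled arrays are highest; the pEGFP-CXXC5 arrays lie lowest for HBZ, FN1 and CDKN1C, while for GDF15 empty vector is lowest, between 9.86 and 10.24.

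Among the genes higher with pEGFP-CXXC5, LY96 stood first. It encodes MD-2, the co-receptor through which TLR4 recognises lipopolysaccharide, and had 7.33, 7.31 and 7.17 with pEGFP-CXXC5, against 4.50, 4.45 and 5.22 with scrambled shRNA. It was 5.84-fold higher (difference 2.55, SE 0.163, adjusted p = 2.72e-06), and the difference was 2.79 without scrambled replicate 3. Its means with CXXC5 shRNA and empty vector were 5.37 and 6.08, between the groups compared.

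PMCH, the precursor of melanin-concentrating hormone, had 7.38, 7.33 and 7.36 with pEGFP-CXXC5, against 5.04, 5.28 and 5.06 with scrambled shRNA, and was 4.69-fold higher (SE 0.0709, adjusted p = 7.92e-09). CALB1, the calcium buffer calbindin, had 7.62, 7.60 and 7.43 with pEGFP-CXXC5, against 5.68, 5.14 and 5.40 with scrambled shRNA, a 4.41-fold difference, and its other probe set stood at 1.74. HNMT, which inactivates histamine, had 7.24, 7.19 and 7.48 with pEGFP-CXXC5, against 5.11, 5.41 and 5.25 with scrambled shRNA, but its other 3 probe sets lay between -0.25 and 0.80. For PMCH the pEGFP-CXXC5 arrays stood alone, since CXXC5 shRNA and empty vector averaged 5.01 and 5.65, whereas CALB1 averaged 6.16 and 6.70 and HNMT 6.36 and 6.75 in these groups.

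For EVI2A, EGFL6 and CGA each pEGFP-CXXC5 array lay above all 9 other arrays. EVI2A, a membrane protein gene nested in an intron of NF1, had 8.18, 8.26 and 8.09 with pEGFP-CXXC5, against 6.67, 6.70 and 6.58 with scrambled shRNA, and was 2.89-fold higher (adjusted p = 2.25e-06). Its neighbour in the same intron, EVI2B, named after its values were seen, had 8.50, 8.68 and 8.40 with pEGFP-CXXC5, against 7.56, 7.59 and 7.47 with scrambled shRNA. EGFL6, a secreted protein with EGF repeats, had 5.31, 5.71 and 5.49 with pEGFP-CXXC5, against 3.98, 4.08 and 4.05 with scrambled shRNA, a 2.76-fold difference. CGA, the alpha subunit of the glycoprotein hormones, had 6.32, 6.13 and 5.79 with pEGFP-CXXC5, against 4.54, 4.26 and 4.56 with scrambled shRNA, and was 3.1-fold higher. EVI2A and EVI2B averaged 6.50 and 7.41 with CXXC5 shRNA and 6.67 and 7.56 with empty vector.

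Other genes were at the empty vector level and low in the scrambled arrays. RSAD2, the antiviral enzyme viperin, had 9.10, 8.80 and 8.82 with pEGFP-CXXC5, against 7.61, 7.55 and 7.38 with scrambled shRNA, and was 2.62-fold higher (adjusted p = 4.42e-06). It averaged 8.23 with CXXC5 shRNA and 9.10 with empty vector. CYP3A5, a drug-metabolising cytochrome, was higher by 1.16 log2 with an empty vector mean of 7.33, and its other probe sets lay between 0.70 and 1.34. THBS1, the matrix protein thrombospondin, was higher by 1.33 in its brightest probe set, while its other 4 lay between -0.17 and 0.47. ATP1B4 was higher by 1.44, and by 1.06 without scrambled replicate 3.

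**Figure D4:**
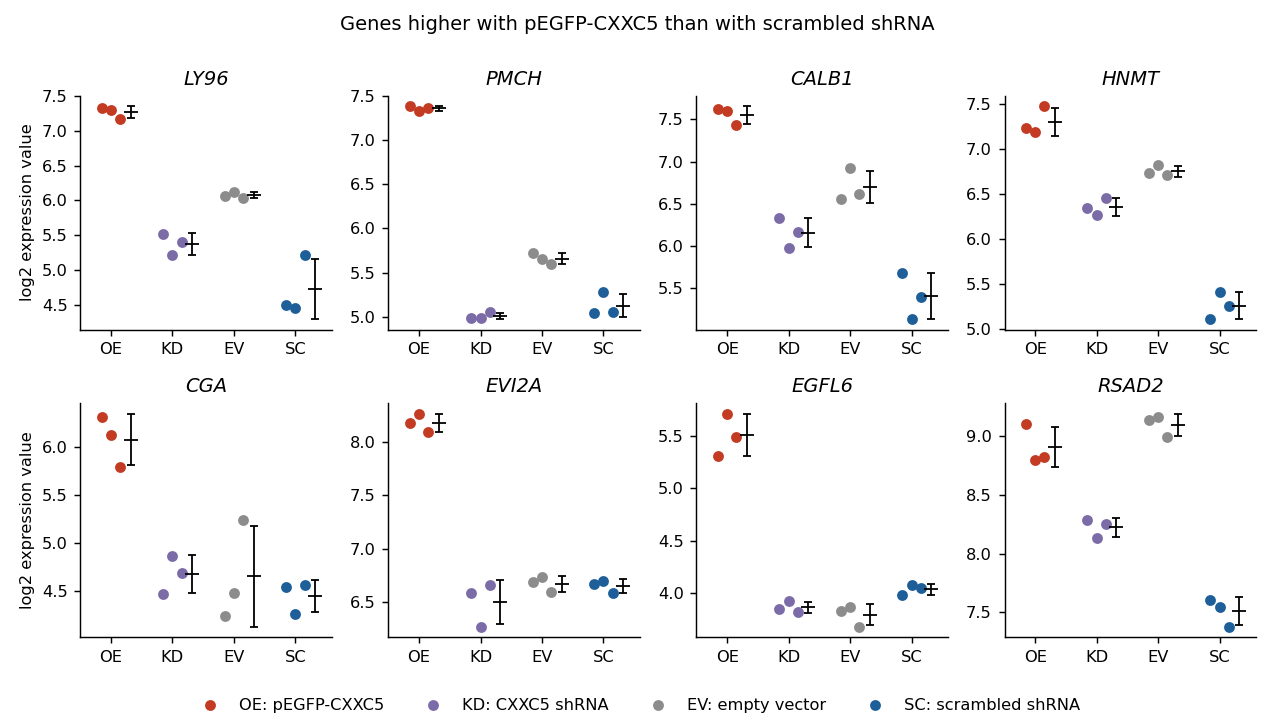
Log2 expression values by array of 8 genes higher with pEGFP-CXXC5 (OE) than with scrambled shRNA (SC); CXXC5 shRNA (KD) and empty vector (EV) arrays are shown for reference, dots are arrays, black marks the mean with SD (n = 3), and the vertical axes do not start at 0. For EVI2A and EGFL6 the pEGFP-CXXC5 arrays stand above the 9 others, whereas for RSAD2 empty vector reaches the same level, 9.10 on average.

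Interferon-stimulated genes, the antiviral programme that interferons switch on, gave 6 higher and 2 lower of 38 measured. These were 15.8% and 5.26%, against 7.19% and 8.79% of all genes, and the median was 0.077. Beside RSAD2, the restriction factor TRIM22 was higher by 0.96 log2, the GTPase GBP2 by 0.84 and MX2, another antiviral GTPase, by 0.66. The lower ones were EIF2AK2 at -0.29 and ISG15 at -0.25. Most of the list was not called, such as IFIT1 at 0.10, MX1 at 0.06 and OAS1 at -0.21. These 5 were named after their values were seen. The list median was -0.056 for pEGFP-CXXC5 minus empty vector and -0.106 for scrambled minus empty vector. GBP2 had 7.14, 6.63 and 7.05 with pEGFP-CXXC5, against 5.97, 6.18 and 6.14 with scrambled shRNA. MX2 had an adjusted p of 0.0505 without scrambled replicate 3, which leaves 5 higher genes and 1 lower; 1 was lower without any single array other than scrambled replicate 2.

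Of 32 myeloid differentiation genes, 5 were higher (15.6%) and 2 lower (6.25%), against 7.19% and 8.79% of all genes. The median was -0.030, and 1 was lower without pEGFP-CXXC5 replicate 1 or 2 or scrambled replicate 2 or 3. LY96 is one of the 5. FCGR1BP, a pseudogene nearly identical to the high-affinity IgG receptor gene, had 8.12, 7.97 and 8.03 with pEGFP-CXXC5, against 7.05, 7.01 and 6.94 with scrambled shRNA, and its probe set can read its relatives. NCF4, a subunit of the phagocyte oxidase, was higher by 0.87 log2 with its other probe set at 1.03, and MNDA, a nuclear antigen of myelomonocytic cells, by 0.82 at percentile 5.77 of level. The single genes were thus raised while most of the list was not.

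Calls fell on 2 of 24 Wnt targets and 7 of 43 pathway components, against 16% of all genes. Of the 24 measured Wnt/beta-catenin targets and TCF factors, 2 were lower and 0 higher in the limma fit (3 each at an unadjusted p under 0.05), and the median difference was -0.030, close to that of all genes. The lower ones were ID2, an inhibitor of helix-loop-helix factors that also counts as a BMP target, at -0.56 and PPARD, a lipid-sensing nuclear receptor, at -0.35. ID2 had 9.24, 9.56 and 9.43 with pEGFP-CXXC5, against values between 9.83 and 10.06 with scrambled shRNA. PPARD lost its call when any of 5 single arrays was left out, and its other probe sets stood at -0.27 and 0.14. Without pEGFP-CXXC5 replicate 3, 1 gene of the list was higher.

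Of 43 receptors and components of the Wnt pathway, 5 were higher and 2 lower. The receptors FZD6 and FZD1 were higher by 0.41 and 0.35 log2, with the other FZD1 probe set at 0.08, and TLE4, a corepressor that TCF factors recruit, by 0.33. TLE2, a corepressor of the same family, had 8.69, 8.44 and 8.38 with pEGFP-CXXC5, against 8.97, 9.15 and 9.20 with scrambled shRNA, and was lower by 0.61 (adjusted p = 0.00174). Without pEGFP-CXXC5 replicate 2, 1 component was higher, and without replicate 1 of that group 2 were. Without scrambled replicate 2, 3 were higher, and 1 was lower without pEGFP-CXXC5 replicate 3 or scrambled replicate 1 or 3.

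Targets and feedback genes of BMP and TGF-beta gave 10 lower and 1 higher of 23 measured, with a median of -0.235, but leaving out single arrays left 5 or 6 lower, whichever array was left out. SMAD6, an inhibitory SMAD, had 7.88, 7.60 and 7.73 with pEGFP-CXXC5, against 8.45, 8.35 and 8.49 with scrambled shRNA, and was lower by 0.69 (adjusted p = 0.000339). HEY1, a repressor induced by BMP and Notch, was lower by 0.61. ID1, a relative of ID2, went the opposite way, with 8.11, 8.33 and 8.30 in pEGFP-CXXC5 cells, against 7.63, 7.73 and 6.81 in scrambled cells; its difference was 0.86, and 0.57 without scrambled replicate 3.

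Metallothioneins, small proteins that bind zinc and copper, set both groups apart from empty vector more than from each other. Of 11 measured metallothionein and zinc efflux genes, 2 were lower (18.2%, against 8.79% of all genes) and 0 higher. At an unadjusted p under 0.05 the counts were 4 and 0, and the median difference was -0.293. The list median was -2.248 for pEGFP-CXXC5 minus empty vector and -2.079 for scrambled minus empty vector. MT1X had 6.53, 6.45 and 6.57 with pEGFP-CXXC5, against 7.34, 7.14 and 7.23 with scrambled shRNA, and was lower by 0.72 (adjusted p = 0.0116), while CXXC5 shRNA and empty vector averaged 8.04 and 10.55. MT2A differed by -0.45 (adjusted p = 0.131) and MT1E by 0.33 (adjusted p = 0.327). Further probe sets stood at -0.40 for MT1E, -0.43 for MT1X and -0.35 for MT1G, none of them called, and at -0.65 for MT1F, which was called. SLC30A1, a zinc exporter, was lower by 0.29 and lost its call when any of 5 single arrays was left out. Leaving out single arrays left 1 to 3 genes of the list lower. The probe sets of this family can match several members.

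In the lists of growth and housekeeping genes the share called in either direction lay below the 16% of all genes, except for the histones, with 8 of 42. Of 39 G1/S and DNA replication genes, 2 were higher and 0 lower (4 and 1 at an unadjusted p under 0.05). SLBP, which binds histone mRNA, was higher by 0.28 log2 and CCND3, a D-type cyclin, by 0.23. Of 38 G2/M and spindle genes, 3 were higher, among them the APC activator CDC20 at 0.24, and 1 was lower, the proliferation antigen MKI67, at -0.27, with its other probe sets between -0.36 and 0.21. Of 42 histone genes, 5 were higher and 3 lower, with H3C2 at 0.62, H2BC15 at 0.51 and H3C7 at 0.48. Histone genes are close copies of each other, so single members are uncertain. Leaving out single arrays left 0 to 2 G1/S genes, 0 to 2 G2/M genes and 1 to 5 histone genes higher, the histone count being 1 without pEGFP-CXXC5 replicate 2 and 3 without replicate 3 of that group or scrambled replicate 2. They left 0 or 1 G2/M genes and 0 to 2 histone genes lower.

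Of 51 cytosolic ribosomal protein genes 0 were called by limma (1 higher and 4 lower at an unadjusted p under 0.05), and the smallest p belonged to RPLP2 at -0.45 and RPL3 at -0.17; 1 was lower without scrambled replicate 3. Of 62 oxidative phosphorylation subunits, 4 were lower and 0 higher (13 and 0 at an unadjusted p under 0.05), with NDUFA7 and NDUFS4, both of complex I, at -0.26, and 0 were called without scrambled replicate 3 or any single pEGFP-CXXC5 array, or 1 without scrambled replicate 2. Of 48 mitochondrial ribosomal proteins, 1 was higher and 1 lower, MRPS12 at 0.28 and MRPL23 at -0.26, and single omissions left 0 to 2 each way. Of 35 proteasome subunits, 2 were higher and 2 lower, among them the proteasome activator PSME1 at -0.42, and PSMD11 at 0.42, which had its lowest value in scrambled replicate 3 and its other probe set at -0.06; without that array 0 were higher and 1 lower, and over the other omissions 0 to 2 were higher and 1 lower. Of 28 cytosolic and mitochondrial heat shock chaperones, 2 were higher, the co-chaperones DNAJB6 at 0.27 and DNAJA1 at 0.21, and 0 lower (3 and 1 at an unadjusted p under 0.05); 1 was called without scrambled replicate 1 and 0 without any other single array.

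Of 18 CpG-binding and DNA methylation factors, the class to which CXXC5 belongs, 2 were higher and 0 lower (2 each at an unadjusted p under 0.05). MBD2, which binds methylated CpG, was higher by 0.28 log2, with its other 3 probe sets between -0.11 and 0.13 and not called, and ZBTB33, at percentile 0.326 of level, by 0.36. The higher count was 1 without any single array other than scrambled replicate 2, and 1 was lower without scrambled replicate 3. Of 20 genes known as p53 targets, which K562 cells express without functional p53, 4 were higher and 4 lower. Each share was 20%, against 7.19% higher and 8.79% lower among all genes. TIGAR, a regulator of glycolysis, was higher by 0.66 and MDM2, the p53 ubiquitin ligase, by 0.50 with its other probe sets between -0.09 and 0.47, whereas CDKN1A, the kinase inhibitor p21, was lower by 0.64 and GADD45B, a stress sensor, by 0.50.

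Of 29 apoptosis regulators, 3 were lower (10.3%) and 1 higher (3.45%), against 8.79% and 7.19% of all genes. CFLAR, an inhibitor of caspase-8 that NF-kappaB induces, had 10.67, 10.69 and 10.66 with pEGFP-CXXC5, against 11.17, 11.31 and 11.16 with scrambled shRNA, and was lower by 0.54 (adjusted p = 0.0011), while its other 10 probe sets lay between -0.49 and 0.25. MCL1, which blocks apoptosis at mitochondria, was lower by 0.31, with its other 4 probe sets between -0.19 and 0.10 and not called. BIK, which promotes apoptosis, was higher by 0.48 and lost its call without any single array other than scrambled replicate 1, without which 2 members were higher. Of 22 megakaryocyte and platelet genes, 3 were higher and 3 lower (13.6% each), against 7.19% and 8.79% of all genes. THBS1 was the largest and the others lay within 0.41 log2. The lower count was 1 without pEGFP-CXXC5 replicate 1 or 2 or scrambled replicate 2 or 3. Of the lists for other cell types, 4 of 24 lymphoid genes were lower (16.7%) and 2 higher (8.33%), with CD3G at 0.57 and CD8A at -0.54. Of 26 fibroblast, endothelial and epithelial genes, 5 were lower (19.2%) and 1 higher (3.85%), with FN1 the largest, TEK at -0.54 and DCN at -0.52. The shares of all genes were 8.79% lower and 7.19% higher. The other TEK probe set stood at 0.07, and the other 3 DCN probe sets lay between 0.07 and 0.31. Leaving out single arrays left 2 or 3 lymphoid genes and 4 or 5 fibroblast, endothelial and epithelial genes lower, and 1 or 2 and 0 or 1 higher.

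**Figure D5:**
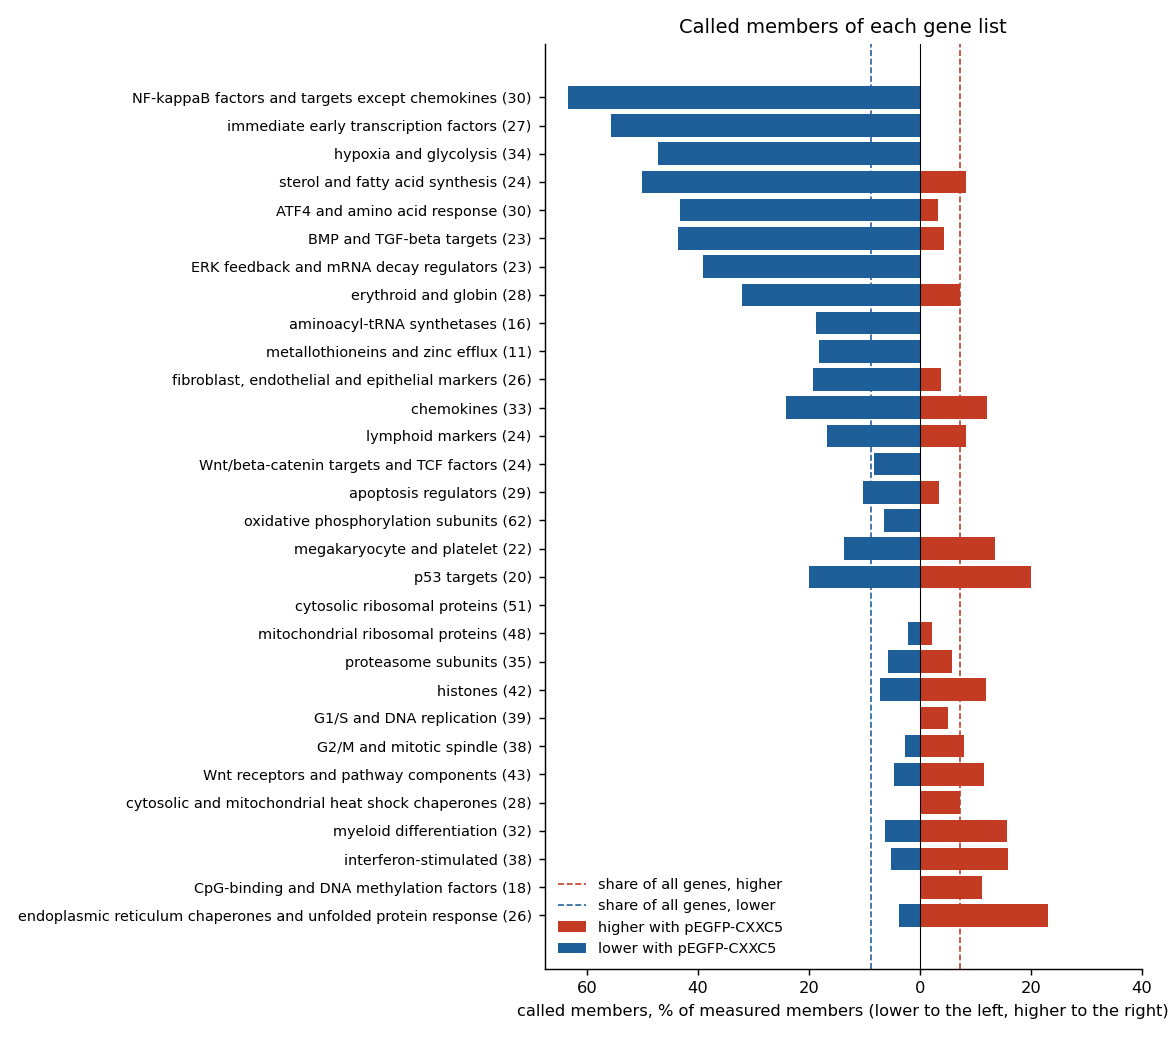
Share of measured members of each of the 30 gene lists that were called lower (blue, to the left) or higher (red, to the right) with pEGFP-CXXC5 than with scrambled shRNA, in percent, with the number measured in brackets; dashed lines mark the shares of all genes, 8.79% lower and 7.19% higher. The NF-kappaB list has the widest blue bar, 63.3%, and the endoplasmic reticulum list the widest red bar, 23.1%.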

How the data were processed

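Per the labels, 12 samples of K562 RNA were each read on 1 Affymetrix array. The authors deposited 1 log2 expression value per probe set and array, made with Affymetrix Expression Console per the submitters' processing notes; the log2 scale was inferred from the range of 2.07 to 14.4, while its version and its way of summarising probes are not stated. Arrays give no depth, and their number limits the precision. No scan dates or scanner files were used here, so batches and detection above background were not examined.

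Of 22277 probe sets, 62 controls were left out. A platform annotation paired 19064 of the remaining 22215 with 1 gene symbol, 1043 with several and 2108 with none; 19052 were matched to RefSeq by gene identifier, 2 by accession and 10 kept the given symbol. The brightest probe set, by its mean over 12 arrays, stood for each gene (4310 genes had more than 1).

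limma 3.58.1 in R 4.3.3 was fitted with 1 coefficient per group over all 12 arrays (8 residual degrees of freedom), with eBayes at its default prior, for pEGFP-CXXC5 minus scrambled. The two-sided p-values of all 22215 probe sets were adjusted together by the Benjamini-Hochberg method. Figures were drawn with matplotlib 3.10.9 in Python 3.11.15, and tables made with pandas 2.3.3. On simulated data, 14% of probe sets changed by 0.3 log2 were recovered, 82% at 0.6, 98% at 1 and 100% at 2, with 9 of 22015 unchanged ones called. Only 200 probe sets were changed in the simulation, fewer than were called on the arrays, so these shares need not hold for the arrays.

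Named genes are the 12 largest called differences each way without overlap of the groups, up to 4 called members of each of 30 lists (2 by smallest p where none was called), the 5 largest each way with empty vector and scrambled means within 0.25 log2, the 5 each way with pEGFP-CXXC5 and empty vector means that close, and any metallothionein or chemokine; not every one is mentioned. The comparison, members and lists were chosen with earlier results of these data known. Promoters came from a RefSeq table (GRCh38.p14). Replicate numbers were not used to pair the samples in the main fit. Deviations from the group means of same-numbered arrays correlated at 0.159, -0.019 and 0.164, and those of differently numbered arrays at -0.192 to 0.043. Replicates 1 and 3 thus correlated best with their own number and replicate 2 did not, which leaves a pairing unsettled. Alternatives were other scalings, filters, probe set rules, fits, thresholds and leaving out each array.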

Additional observations from a re-analysis of the deposited data

How the results depend on the processing

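Of the 163 named genes 130 were called, and these kept their direction under all alternatives, with 1 exception. DCN stood at 0.03 when the mean of its probe sets was used. Changes of sign in genes that were called in neither fit were not counted. The stricter thresholds reused the main fit, where a direction cannot change, and genes removed by the level filter had no value there. The genes were called on arrays that the alternatives share, so a kept direction was likely beforehand. Over 163 named genes and the alternatives, 2337 values kept their side of the threshold, 370 lost the call and 18 gained it. With the 6 arrays alone, which leaves fewer residual degrees of freedom, 1798 probe sets were called (870 higher, 928 lower) and 1112 genes (482 higher, 630 lower). At an adjusted p under 0.01 there were 871 probe sets (414 higher, 457 lower) and 591 genes (261 higher, 330 lower). Calls of at least 2-fold numbered 66 probe sets (37 higher, 29 lower) and 44 genes (22 each way). A fit on 1 probe set per gene called 976 higher, and array weights called 1295 genes higher; the cause was not tested. Leaving out 1 array at a time gave 1479 to 2779 probe sets called, 702 to 1424 higher and 777 to 1355 lower, and 951 to 1718 genes called, 415 to 782 higher and 536 to 936 lower; each lowest value came without pEGFP-CXXC5 replicate 2 and each highest without scrambled replicate 1. Median centring of the arrays moved the higher share of called probe sets to 39.9%, against 50.2%. With the replicate block 3465 probe sets were called, 1819 higher and 1646 lower; not every array correlated best with its own number. The median SE over genes was 0.0896 log2. Differences under 0.3 were called for some genes, such as CDC20 at 0.24 and DNAJA1 at 0.21, and not for others, such as KLF1 at -0.23. Alternatives that counted genes were chosen after seeing the data.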

Other observations

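CpG content of the promoters, a property that a CXXC domain is known to read, was counted over the RefSeq windows as a description without a test. The median number of CpG per promoter was 24 over the 9563 tested genes with a sequence, 26 over 716 higher genes and 27 over 832 lower genes. Among genes at least 2-fold apart the median was 4 in 16 higher genes and 19 in 15 lower genes. The 3 promoters with the shared kappaB run held 22 CpG (CXCL1), 22 (CXCL2) and 24 (CXCL3), while those of CXCL8, CXCL10 and CCL20 held 4, 3 and 3.

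The remaining named genes are given by their values. GPR85, an orphan receptor, had 4.96, 4.72 and 4.50 with pEGFP-CXXC5, against 3.76, 3.64 and 3.73 with scrambled shRNA, with an empty vector mean of 4.59. JADE2, a chromatin protein, had 8.03, 7.92 and 8.04 with pEGFP-CXXC5, against 6.97, 7.04 and 6.95 with scrambled shRNA, with an empty vector mean of 8.03, but its other probe set differed by -0.26. ARL14, a small GTPase, had 3.97, 3.51 and 3.44 with pEGFP-CXXC5, against 2.76, 2.62 and 2.51 with scrambled shRNA, with means of 2.90 with CXXC5 shRNA and 2.85 with empty vector, at percentile 2.76 of level. IGFBP2, which binds insulin-like growth factors, had 6.20, 5.83 and 5.73 with pEGFP-CXXC5, against 6.49, 6.32 and 6.68 with scrambled shRNA, with means of 6.85 and 6.35 in the other groups.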
